A study of Mus musculus with 7 samples.

Results

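The endocrine fibroblast growth factors (FGFs) are hormones that travel in blood and act only where a klotho protein sits beside an FGF receptor. They comprise Fgf15 (the mouse counterpart of human FGF19), Fgf21 and Fgf23. The set described here has 10 genes: these hormones, the paracrine ligand Fgf1, the receptors Fgfr1, Fgfr2, Fgfr3 and Fgfr4, and the co-receptors Kl (α-klotho) and Klb (β-klotho). The members were taken by name from the 50226 gene names of the deposited table, in which 36 of the 94339 loci carry one of the 10 names. The rule takes names and no measured value, but the names were proposed with earlier results of these data known. The table covers 3 fat depots, namely visceral (VAT), subcutaneous (SCAT) and brown adipose tissue (BAT), together with skeletal muscle, cortex, kidney and liver. All came from mice of genotype wt and strain C57BL/6 in the labels (C57BL/6N in the study's text), aged 36 weeks and on the diet labelled NCD. Each of the 7 tissues has 1 library of rRNA-depleted RNA, so no difference between tissues has a replicate check and no p-value is given. The labels do not say whether 1 animal or several gave the RNA of a tissue.

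FGFs bind receptor tyrosine kinases and, through the adaptor FRS2 and the MAP kinase cascade, change transcription in the target cell. Paracrine FGFs bind heparan sulphate and stay close to the cell that made them, whereas the endocrine FGFs bind it weakly and need klotho proteins for receptor binding. FGF15/19 is released by the ileum after a meal and acts on hepatocytes through FGFR4 and β-klotho to lower bile acid synthesis. FGF21 is made mainly by the liver and acts on adipose tissue and brain through FGFR1 and β-klotho, and FGF23 is made by bone and acts on the kidney through α-klotho to promote phosphate excretion and lower active vitamin D.

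Levels are given as FPKM, the authors' deposited fragment values corrected for the length of the transcript and the size of the library. Differences are on the log2(FPKM + 0.1) scale, which understates those of low values, or as plain ratios of FPKM, which are called folds. Fragment counts are not part of the table, and the depth of each library is unknown. Enrichment in a tissue required at least 1 FPKM and a level at least 2 log2 units, or 4-fold, above each of the other 6 tissues. At the loci used, 8 of the 10 members reached 1 FPKM in a tissue, 1 of them (Fgfr2) only at a locus that also carries Ctbp2. Of the members 2 were enriched, Fgf21 in liver and Kl in kidney. The same rule called 23% of all 19122 gene names with at least 1 FPKM and 21.4% of the 14928 protein-coding ones. By tissue, 3.39% of protein-coding genes were enriched in liver, 2.49% in kidney, 8.21% in cortex, 3.38% in muscle and 0.757% in BAT. Of the member values, 13 were listed at 0 and 0 were missing.

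**Figure D1:**
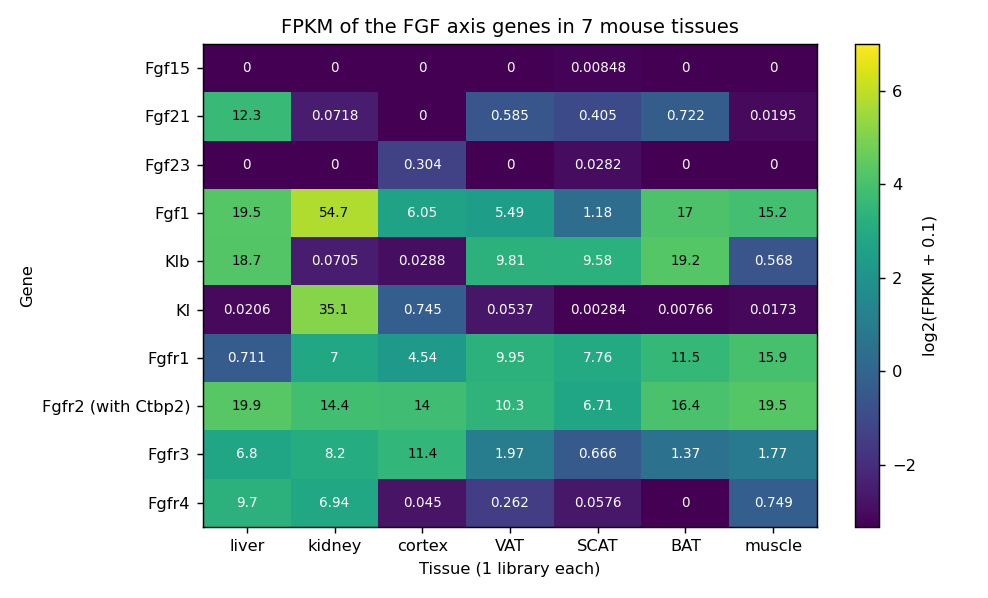
FPKM of the 10 genes (rows) in 7 tissues (columns, 1 library each). The number in each cell is the FPKM and the colour is log2(FPKM + 0.1). Fgf21 stands out in liver (12.3) and Kl in kidney (35.1), Klb is high in liver and the 3 adipose libraries, and Fgf15 and Fgf23 are near 0 throughout. The Fgfr2 row is a locus that also carries Ctbp2.

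Several names occurred at more than 1 locus, on either strand. For the members, 10 of the 36 loci lay on the strand of the annotated gene and 26 on the opposite strand. Over the whole table, the annotated strand held 75.3% of 61921 combinations of locus and name. Each member was read at its locus of highest FPKM, and for 5 of them, Fgf21, Fgf23, Fgfr4, Kl and Klb, this locus lay on the opposite strand. Every locus of these 5 genes is therefore set beside the one used below. Strands follow from the order in which the table lists its loci, and the strand setting of the authors' counting of these strand-specific libraries is not given in the sources used here. The loci of a gene share outer bounds, so the table does not show which stretch each covers, and FPKM differences between genes can include differences between the loci used.

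Fgf15 was at the floor of the table. It was listed at 0 in liver, kidney, VAT, cortex, BAT and muscle, and at 0.00848 FPKM in SCAT. None of the 7 libraries is from ileum, the known source of this hormone. Fgf23 was listed at 0 in liver, kidney, VAT, BAT and muscle, with 0.0282 FPKM in SCAT and 0.304 in cortex. Bone, its known source, was likewise not sampled. The cortex value of Fgf23 stayed under the minimum of 1 FPKM. The second Fgf23 locus, on the annotated strand, gave 0.0105 FPKM in cortex and was listed at 0 in every other tissue.

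Fgf21 (chr7:45613886-45615490, minus strand, GRCm38) was the only hormone of the 3 with a level above 1 FPKM, and it reached this in liver. Its FPKM was 12.3 in liver, 0.722 in BAT, 0.585 in VAT, 0.405 in SCAT, 0.0718 in kidney and 0.0195 in muscle, and it was listed at 0 in cortex. Liver lay 17.1-fold above BAT, or 3.92 log2 units, and 172-fold above kidney. The adipose libraries came next, within a narrow range, and kidney, muscle and cortex were lowest. A second Fgf21 locus, on the annotated strand, gave 4.79 FPKM in liver against 0.314 in BAT and 0.297 in VAT, a 15.2-fold difference between liver and BAT. Both loci put the tissues in the same order down to SCAT.

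The VAT library also held transcripts of liver. Apoa1 stood there at 0.701% of its liver FPKM, Fga at 0.691%, Ttr at 0.85% and Tat at 2.29%, while Alb, without a usable liver value, stood at 253 FPKM in VAT. Fgf21 in VAT was 4.74% of its liver level, and Fgfr4 2.70%. In BAT the same genes were lower than in VAT, with 0.126 FPKM for Apoa1 against 17.7, yet Fgf21 was 5.86% of its liver level. The part of liver RNA in the VAT values was not tested.

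The promoter of Fgf21 is shown because this gene is the member enriched in liver, and those of Klb, Kl and Fgfr4 because their levels split the tissues in other ways. They are the 250 bases before the start of each gene in RefSeq (GRCm38.p6), written 5′ to 3′ on the strand of the gene. The gene bounds printed in this text come from another annotation, and the Klb and Fgfr4 windows lie partly inside those bounds. Promoters were read for 7 members, with Fgf1 left out of the search and none found for Fgf15 and Fgfr1. Capitals mark matches on either strand to any of 6 short motifs. The TATA box, which positions the start of transcription, was searched as TATAAA. The letters CCAAT, bound by NF-Y, were searched as such. The box bound by SP1 was searched as GGGCGG, and the palindromic motif of basic helix-loop-helix factors (the E-box) as CACGTG. The half-site shared by many nuclear receptors was searched as AGGTCA, and the core of the amino acid response element, which ATF4 binds, as TGATGNAAT.
Fgf21 promoter, chr7:45615491-45615740 (-): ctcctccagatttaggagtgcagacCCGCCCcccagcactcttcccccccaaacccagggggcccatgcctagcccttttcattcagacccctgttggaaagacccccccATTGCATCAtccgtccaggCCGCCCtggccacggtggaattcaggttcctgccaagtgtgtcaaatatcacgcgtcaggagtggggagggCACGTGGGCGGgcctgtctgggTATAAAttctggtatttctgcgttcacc
Klb promoter, chr5:65348161-65348410 (+): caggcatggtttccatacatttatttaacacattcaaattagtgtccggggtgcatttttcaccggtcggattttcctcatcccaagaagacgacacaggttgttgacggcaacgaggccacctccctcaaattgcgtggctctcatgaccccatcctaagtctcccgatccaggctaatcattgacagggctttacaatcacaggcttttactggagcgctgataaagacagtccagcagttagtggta
Kl promoter, chr5:150952357-150952606 (+): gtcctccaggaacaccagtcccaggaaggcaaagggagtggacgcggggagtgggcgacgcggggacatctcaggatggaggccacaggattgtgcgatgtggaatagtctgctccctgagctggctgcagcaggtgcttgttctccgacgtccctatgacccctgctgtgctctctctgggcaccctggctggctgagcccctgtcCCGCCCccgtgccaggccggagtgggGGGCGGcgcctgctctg
Fgfr4 promoter, chr13:55152568-55152817 (+): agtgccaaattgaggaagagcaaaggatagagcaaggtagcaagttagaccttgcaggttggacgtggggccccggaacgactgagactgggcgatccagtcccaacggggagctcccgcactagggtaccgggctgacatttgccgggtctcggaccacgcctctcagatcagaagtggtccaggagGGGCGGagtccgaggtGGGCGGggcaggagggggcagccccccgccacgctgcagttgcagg

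The Fgf21 promoter held 6 matches. The TATA box began 28 bases before the start, an E-box 50 bases before, the amino acid response element 140 bases before, and SP1 boxes 45, 121 and 225 bases before. The SP1 box at 45 overlaps the E-box by 1 base. Of 32851 RefSeq promoters of this length, 12.4% held TATAAA, 6.02% CACGTG, 0.816% TGATGNAAT and 32.7% GGGCGG. The motif of NF-Y was in 33.8% and the nuclear receptor half-site in 14% of them, and neither was in any of the 4 windows printed. The Klb window held no match to any of the 6 motifs, and those of Kl and Fgfr4 held 2 SP1 boxes each. With 9 CpG dinucleotides, Fgf21 and Klb lay near the median of 6 for all promoters, and Kl (13) and Fgfr4 (15) above it. A match is a description of the letters only, and no binding was measured here.

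Klb (chr5:65348314-65384007, plus strand) was high in liver and in every adipose library and low elsewhere. Its FPKM was 19.2 in BAT, 18.7 in liver, 9.81 in VAT and 9.58 in SCAT, against 0.568 in muscle, 0.0705 in kidney and 0.0288 in cortex. The lowest of the high tissues, SCAT, stood 16.9-fold above muscle, the highest of the low ones. BAT and liver were 1.03-fold apart and BAT and SCAT 2.00-fold, and with 1 library each neither step in the order can be set against replicate spread. Because the next tissue to BAT is liver, Klb was not enriched in a single tissue by the rule above.

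To describe such patterns, the largest gap between neighbouring tissues was taken for each gene, a rule chosen after the values were seen. With a gap of at least 2 log2 units and at least 1 FPKM in every tissue above it, liver, VAT, SCAT and BAT stood over the other tissues in 9 of 14898 protein-coding genes (0.0604%). The other 8 were Cd1d1, which presents lipid antigens, Cd84 and Clec4n of leukocytes, the CTCF paralogue Ctcfl, the helicase Dhx40, Mis18a, the melanocortin receptor accessory protein Mrap, and Pde3b, which degrades cAMP downstream of insulin. Mrap had the largest gap of the 9 with 4.44 log2 units, Klb the next with 3.86 and Cd1d1 2.94. The Mis18a locus also carries the name Mrap. Pde3b was highest in BAT at 134 FPKM and lowest in cortex at 2.41.

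All 4 Klb loci had this pattern. The locus on the annotated strand stood at 5.99 FPKM in BAT and 4.90 in liver, and the remaining loci, on the opposite strand, at 9.76 and 9.62 and at 17.9 and 15.4. BAT lay 1.01-fold to 1.22-fold above liver across the 4 loci. With median ratio scaling of the libraries the order of this pair turned at the locus used, with 18.4 FPKM in liver and 17.3 in BAT. In kidney, fat and brown fat genes were present at traces, with Ucp1 at 0.162% of its BAT FPKM and the 5 adipose markers at 0.397% (Plin1), 0.518% (Adipoq), 0.533% (Cidec), 2.85% (Lipe) and 3.70% (Lep). Klb in kidney was 0.367% of its BAT level. In muscle the same markers were at 1.79% (Plin1), 3.30% (Cidec), 5.49% (Adipoq), 6.24% (Lipe) and 181% (Lep) of BAT, and Klb at 2.96%. Lep, which is low in BAT (2.02 FPKM), stood at 3.65 FPKM in muscle. The part of adipose RNA in the low kidney and muscle values of Klb was not tested.

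Kl (chr5:150952607-150993817, plus strand) had the largest log2 ratio of the 10 members. It stood at 35.1 FPKM in kidney, 0.745 in cortex, 0.0537 in VAT, 0.0206 in liver, 0.0173 in muscle, 0.00766 in BAT and 0.00284 in SCAT. Kidney lay 47.1-fold above cortex, or 5.38 log2 units, and every other tissue was lower still. The remaining Kl loci gave 11.2 FPKM in kidney and 0.232 in cortex on the annotated strand, and 5.08 and 0.124 on the opposite strand. The kidney to cortex fold at the 3 loci ran from 40.9 to 48.3.

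Within the kidney, α-klotho is known from the distal convoluted tubule, and in the brain from the choroid plexus. All 5 genes of the distal tubule list reached 1 FPKM in the kidney library. Slc12a3, the thiazide-sensitive cotransporter, stood there at 79.2 FPKM, Calb1 at 18.4, Pvalb at 6.11, the magnesium channel Trpm6 at 3.15 and Trpv5 at 1.25. The calcium-binding proteins were higher elsewhere, Calb1 in cortex (27.1) and Pvalb in muscle (4675). Of the 5 markers on the choroid plexus list, 4 reached 1 FPKM in cortex, where the list summed to 6.65 FPKM, and 3 in kidney, where Folr1 alone gave 147. Otx2 (1.01 FPKM in cortex) was the only one enriched in cortex. Clic6 stood at 1.5 FPKM in cortex and 1.47 in VAT, and Kcnj13 at 1.71 in cortex against 2.13 in kidney and 2.06 in liver. Steap1 and Folr1 were enriched in kidney, with 0.532 and 1.90 FPKM in cortex. Ttr, which the liver also makes at 3530 FPKM, stood at 195 in cortex. The part of choroid plexus in the cortex value of Kl was not tested. In bulk tissue, fewer cells of a type and less RNA in each cell cannot be told apart.

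**Figure D2:**
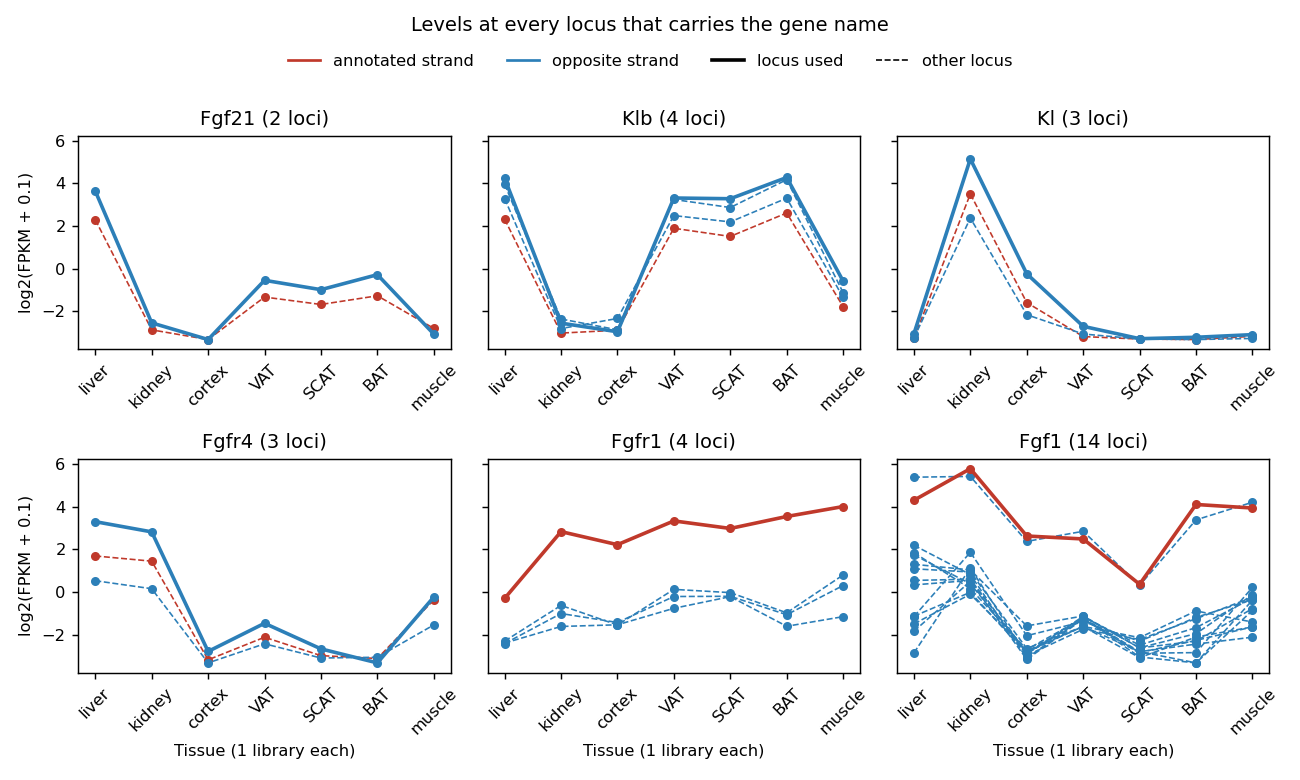
log2(FPKM + 0.1) in 7 tissues at every locus carrying the name of Fgf21, Klb, Kl, Fgfr4, Fgfr1 or Fgf1, with 1 library per tissue. Red lines are loci on the annotated strand and blue lines those on the opposite strand, and the thick line is the locus used. All loci of a panel share the tissues of high level for Fgf21, Klb, Kl and Fgfr4, whereas the 14 Fgf1 loci differ in the order of liver and kidney.

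Fgf1, the ligand that binds all FGF receptors, was the member with the highest single value, in kidney. It stood at 54.7 FPKM in kidney, 19.5 in liver, 17.0 in BAT, 15.2 in muscle, 6.05 in cortex, 5.49 in VAT and 1.18 in SCAT. Kidney lay 2.80-fold above liver, short of the 4-fold asked for, and at the low end SCAT lay 4.64-fold below VAT. Among adipose tissues BAT was 3.10-fold above VAT and 14.4-fold above SCAT. Of the 14 Fgf1 loci, only the one used lay on the annotated strand. The second highest locus gave 42.5 FPKM in kidney and 41.5 in liver, which is 1.03-fold instead of 2.80-fold. The other 12 loci peaked at 0.83 to 4.45 FPKM, 7 of them in kidney and 5 in liver. The lead of kidney over liver thus depends on the locus, while SCAT was low at both of the major ones, at 1.18 and 1.14 FPKM.

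Each receptor had its own order of tissues. Fgfr1 (chr8:25513654-25575718, plus strand), the main partner of β-klotho in adipose tissue, stood at 15.9 FPKM in muscle, 11.5 in BAT, 9.95 in VAT, 7.76 in SCAT, 7 in kidney, 4.54 in cortex and 0.711 in liver. From muscle to cortex no step between neighbours exceeded 2-fold, and muscle lay 1.38-fold above BAT. Liver was set apart, 6.39-fold below cortex and 22.4-fold below muscle. By the gap rule, 0.477% of protein-coding genes (71 of 14898) were lowest in liver alone in this way. The 3 loci on the opposite strand reached at most 1.64 FPKM, and in each of them liver was again lowest, at 0.103 or less. The gap above liver was 2.36-fold to 3.11-fold there and did not meet the rule, against 6.39-fold at the locus used.

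Fgfr4 (chr13:55152640-55168759, plus strand), the receptor through which FGF15/19 acts on hepatocytes, was a gene of liver and kidney. Its FPKM was 9.70 in liver and 6.94 in kidney, 0.749 in muscle, 0.262 in VAT, 0.0576 in SCAT and 0.0450 in cortex, and it was listed at 0 in BAT. Liver lay 1.40-fold above kidney, and kidney 9.26-fold above muscle. By the gap rule, liver and kidney together stood over the other tissues in 1.28% of protein-coding genes (190 of 14898). The locus on the annotated strand gave 3.12 FPKM in liver and 2.62 in kidney, and the third locus 1.34 and 1.01, so the liver to kidney fold ran from 1.19 to 1.40 over the 3 loci. The gap below kidney met the rule at the locus used alone. Muscle stood at 0.673 FPKM at the annotated-strand locus and at 0.243 at the third, gaps of 1.81 and 1.69 log2 units instead of 3.05, both short of the 2 asked for.

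Fgfr3 (chr5:33721674-33737068, plus strand) was highest in cortex with 11.4 FPKM, followed by kidney with 8.20 and liver with 6.80. It stood at 1.97 in VAT, 1.77 in muscle, 1.37 in BAT and 0.666 in SCAT. Cortex lay 1.39-fold above kidney and 17.1-fold above SCAT. The gap below liver was 3.46-fold, so cortex, kidney and liver form a high group that missed the 4-fold rule. Fgfr3 had a single locus, on the annotated strand.

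For Fgfr2 the table has no usable value of its own. The locus with the highest FPKM spans 2962 kb and carries the names of both Ctbp2, a transcriptional co-repressor, and Fgfr2. It stood at 19.9 FPKM in liver, 19.5 in muscle, 16.4 in BAT, 14.4 in kidney, 14.0 in cortex, 10.3 in VAT and 6.71 in SCAT, and the contribution of each gene cannot be separated. A locus with the name Fgfr2 alone lay on the opposite strand and ranged from 0.0638 FPKM in BAT to 0.419 in muscle. This locus stayed below 1 FPKM, so Fgfr2 alone is not shown to reach that level. The merged locus was the flattest of the 8 loci used that reached 1 FPKM, with a 2.97-fold range.

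The makeup of the receptors differed between tissues. With the merged Fgfr2 locus left out, a choice made after the values were seen, Fgfr4 made up 56.4% of the summed receptor FPKM in liver, Fgfr3 39.5% and Fgfr1 4.13%. Kidney was the most even, with 37.0% Fgfr3, 31.6% Fgfr1 and 31.3% Fgfr4. Cortex had 71.2% Fgfr3 and 28.5% Fgfr1. Fgfr1 led in the remaining libraries, with 81.7% in VAT, 91.5% in SCAT, 89.4% in BAT and 86.3% in muscle. Counting the merged locus as Fgfr2 would give it 39.4% to 56.1% of the sum in every tissue, and lower Fgfr4 in liver to 26.1%. The order of the other receptors depends on strand in liver, because Fgfr4 was read at an opposite-strand locus and Fgfr1 and Fgfr3 at annotated-strand ones. With loci on the annotated strand alone, an alternative chosen after the values were seen, Fgfr3 led in liver with 64.0% against 29.4% for Fgfr4. Kidney then had 46.0% Fgfr3, 39.3% Fgfr1 and 14.7% Fgfr4, and the leading receptor of the other 5 tissues was the same.

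The receptors that each hormone is known to use were present beside the co-receptor in different tissues. For the FGF21 pair, Klb and Fgfr1, the FPKM ratio of Klb to Fgfr1 was 0.986 in VAT, 1.23 in SCAT and 1.67 in BAT. With both genes on the annotated strand these ratios were 0.363, 0.354 and 0.521. At the loci used, the ratio was 26.3 in liver, where Fgfr1 was low, and 0.0357 in muscle, 0.0101 in kidney and 0.00633 in cortex, where Klb was low. On the annotated strand it was 6.89 in liver, 0.0120 in muscle, 0.00334 in kidney and 0.00777 in cortex. For the FGF15/19 pair, Klb and Fgfr4, both members exceeded 1 FPKM in liver alone, at 18.7 and 9.70 FPKM, a ratio of 1.92 (1.57 on the annotated strand). In kidney Fgfr4 stood at 6.94 FPKM with Klb at 0.0705, and in BAT Klb stood at 19.2 FPKM with Fgfr4 listed at 0. For the FGF23 axis, Kl in kidney stood at 5.02 times Fgfr1, 4.29 times Fgfr3 and 5.07 times Fgfr4. On the annotated strand it stood at 1.60, 1.37 and 4.28 times these receptors. Outside kidney and cortex Kl was at most 0.0537 FPKM, and at the locus used it was in cortex 0.164 times Fgfr1 and 0.0656 times Fgfr3 (0.0511 and 0.0204 on the annotated strand).

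**Figure D3:**
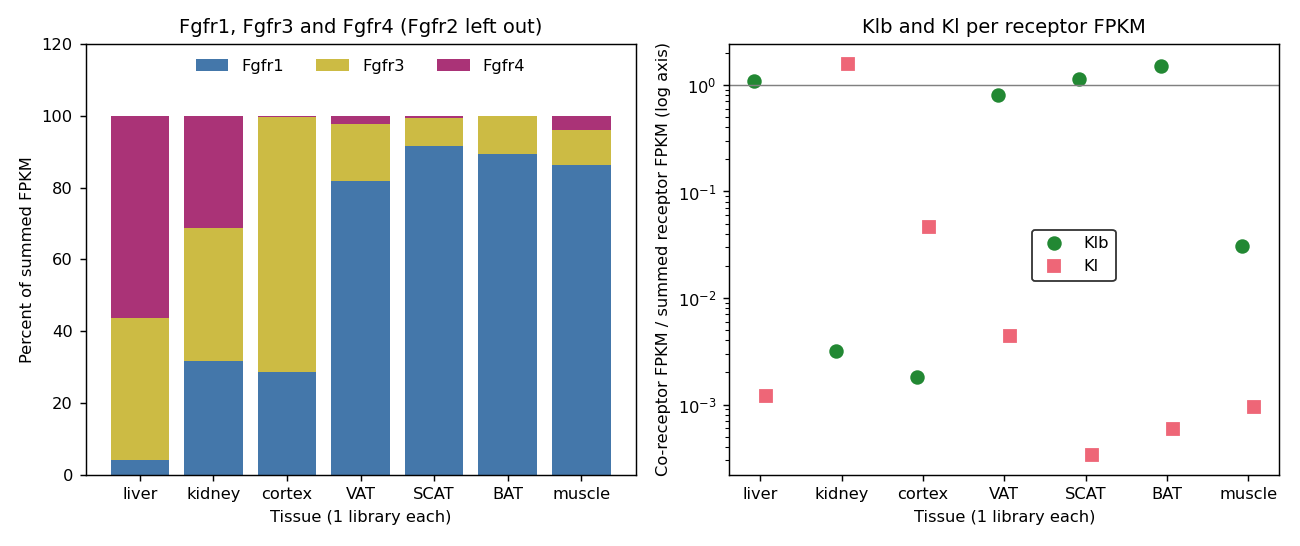
Left, percent of the summed FPKM of Fgfr1, Fgfr3 and Fgfr4 given by each receptor in 7 tissues (1 library each, the merged Fgfr2 locus left out). Right, FPKM of Klb (circles) and Kl (squares) divided by the same sum, on a log axis, with a grey line at 1. At the loci used, Klb lies between 0.805 and 1.49 in liver and the adipose libraries and at or below 0.0308 elsewhere, and Kl is highest in kidney (1.59). On the annotated strand Klb is 0.300 to 0.465 in those 4 tissues, Kl 0.629 in kidney, and Fgfr3 leads Fgfr4 in liver (64.0% against 29.4%).

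Genes that act around these hormones were taken from 9 lists of 99 names, all in the table, of which 20 were enriched in a tissue. The same rule called 23% of all gene names with at least 1 FPKM, and the 99 include some below that level. The total is therefore near the share over all names. In the list of bile acid genes, through which FGF15/19 acts in the liver, 5 of 11 were enriched, all in liver. Cyp7a1, the rate-limiting enzyme of bile acid synthesis, stood at 10.1 FPKM in liver and at most 0.273 elsewhere. Abcb11, the bile salt export pump, had the largest log2 ratio of the list, 6.16, with 67.4 FPKM in liver. Nr0b2 (SHP), the repressor induced by bile acids, stood at 4.75 FPKM in liver and Nr5a2 (LRH-1), which drives Cyp7a1, at 11.8, with log2 ratios of 5.06 and 4.45. The uptake carrier Slc10a1 had the highest FPKM of the list, 177 in liver, with 23.6 in SCAT. The bile acid receptor Nr1h4 (FXR) followed the liver and kidney pattern of Fgfr4, with 53.0 and 39.3 FPKM and at most 0.549 elsewhere, as did Cyp7b1 with 112 and 86.6.

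Cyp8b1, which makes cholic acid, stood at 0.544 FPKM in liver. A locus with the same bounds on the opposite strand, which carries only the name Ackr2, gave 105 FPKM in liver and at most 1.16 elsewhere. The value listed for a gene name can therefore omit reads of its region that the table files under another name.

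In the list of mineral genes of the FGF23 axis, 6 of 14 were enriched, all in kidney like Kl. The phosphate carriers on which FGF23 acts stood at 505 FPKM (Slc34a1, NaPi-IIa) and 13.4 (Slc34a3, NaPi-IIc) in kidney, 10.7 and 6.91 log2 units above the next tissue. Cyp24a1, which degrades active vitamin D and is induced by FGF23, stood at 5.67 FPKM and the vitamin D receptor Vdr at 16.9. The other 2 were Pth1r, the parathyroid hormone receptor, at 118 FPKM and the calcium channel Trpv5 at 1.25. Cyp27b1, the enzyme that makes active vitamin D, was highest in kidney but reached only 0.492 FPKM. Of the genes that control FGF23 in bone, Phex and Dmp1 stayed under 1 FPKM, and the O-glycosylating Galnt3, which protects FGF23 from cleavage, stood at 12.6 FPKM in kidney. The median log2 ratio of the highest over the next tissue was 1.83 for the bile acid list and 2.13 for the mineral list. Over the other lists it was 1.53 for the FGF homologous factors, 1.12 for the metabolic genes of the FGF21 axis, 0.72 for the proteoglycans and carriers, 0.59 for the feedback inhibitors, 0.47 for the adaptors and kinases, 0.35 for the paracrine ligands and 0.23 for the klotho relative and sheddases. Protein-coding genes with at least 1 FPKM had a median of 0.68, while the list medians include genes below that level.

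**Figure D4:**
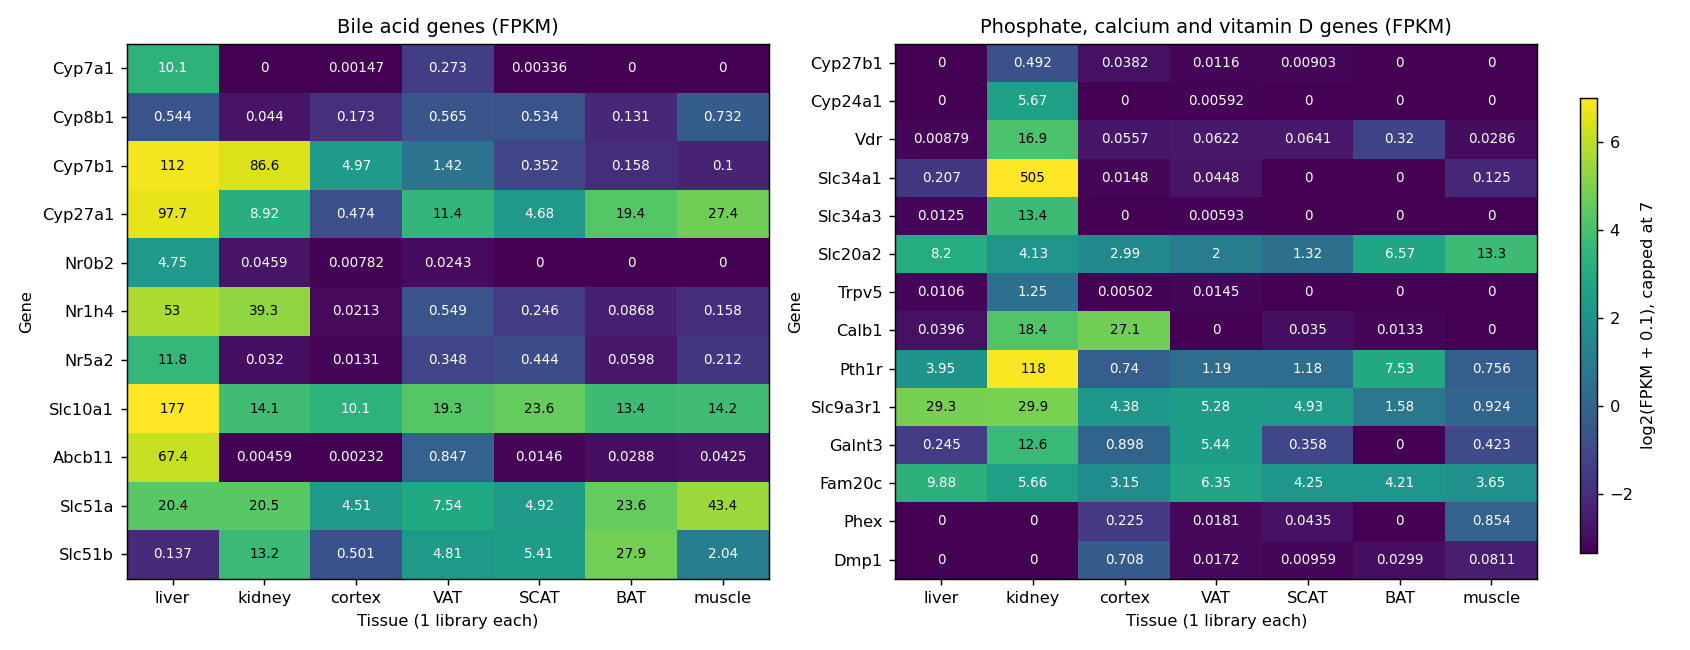
FPKM of 11 bile acid genes (left) and 14 genes of phosphate, calcium and vitamin D handling (right) in 7 tissues, 1 library each. Colours give log2(FPKM + 0.1) and are capped at 7. By the 4-fold rule 5 bile acid genes are enriched in liver and 6 mineral genes in kidney, with Slc34a1 highest at 505.

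In the list of metabolic genes of the FGF21 axis, 1 of 12 was enriched, Ucp1, the uncoupling protein of brown fat, at 6552 FPKM in BAT. Pparg, the master regulator of adipocytes, differed from Klb in liver, with 158 FPKM in BAT, 49.8 in VAT and 41.4 in SCAT against 9.69 in liver. Ppara, which induces Fgf21 in fasting, was highest in liver, 0.70 log2 units above BAT (45.6 FPKM). Of the klotho relative and the sheddases, 0 of 4 were enriched. The third klotho gene, Lctl, stood at 7.92 FPKM in BAT, 6.96 in VAT and 0.999 in SCAT but 0.0155 in liver, so of the 4 tissues with Klb it lacked liver. The sheddase Adam17, which can release the ectodomain of α-klotho, stood at 11.8 FPKM in BAT, the highest of this list.

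The signalling genes were nearly even. Of 17 adaptors and kinases, 0 were enriched. Frs2, the docking adaptor of FGF receptors, ran from 2.23 FPKM in VAT to 5.77 in liver. Of 10 feedback inhibitors 1 was enriched, Spry3 in cortex at 2.02 FPKM, and the decoy receptor Fgfrl1 reached 11.0 in VAT. Of 13 proteoglycans and carriers 4 were enriched: Gpc1 (44.9 FPKM) and Fgfbp1 (9.34) in muscle, Gpc5 (10.3) in cortex and Sdc1 (25.2) in liver. The highest of them, Sdc4, stood at 112 FPKM in liver and 69.3 in kidney.

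Other ligands of the family were mostly low. Of 14 paracrine FGFs, 5 reached 1 FPKM and 1 was enriched, Fgf6, a ligand of muscle, at 1.85 FPKM there. The highest was Fgf9, with 4.16 FPKM in cortex and 3.99 in kidney. The FGF homologous factors stay inside the cell and bind sodium channels. Of 4 of them, 2 were enriched in cortex, Fgf12 at 31.4 FPKM and Fgf14 at 5.97. None of the 14 reached the kidney level of Fgf1.

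The members did not share one pattern. Across the 7 tissues, the 3 gene names nearest to each member by Pearson correlation of log2(FPKM + 0.1), out of 19087, were read as a description, since all points come from the same 7 libraries. For Kl they were the transcription factor Neurog2 (r = 0.997), the organic anion transporter Slc22a8 (0.997) and Zpld1 (0.996), each highest in kidney with cortex next. Slc22a8 stood at 31.8 FPKM in kidney and 0.496 in cortex. For Klb they were Ctcflos (0.995), an antisense gene, its neighbour Ctcfl (0.990) and Cd1d1 (0.984). For Fgfr4 they were Errfi1 (0.984), an inhibitor of EGF receptors, and Hnf1aos1 and Hnf1aos2 (0.982 each), antisense genes named on 1 shared locus. For Fgf21 they were the pseudogene Gm42642 (0.983), Ube2l6 (0.980) and the cytochrome Cyp4v3 (0.979), the last at 192 FPKM in liver.

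For Fgfr1 the nearest were Ly6c1 (0.980), the platelet-derived growth factor gene Pdgfb (0.977) and the drug efflux pump Abcb1b (0.973). Ly6c1 and Pdgfb are known from endothelium, and like Fgfr1 both were lowest in liver, at 0.129 and 0.221 FPKM. For Fgfr3 they were C2cd2l (0.982), Ndfip1 (0.978) and Rac3 (0.977), all highest in cortex. For Fgf1 they were Akr1e1 (0.975), Tmed4 (0.973) and Prosc (0.969), all highest in kidney and lowest in SCAT. The merged Fgfr2 locus was nearest to Gm8337 (0.990), Txnl1 (0.990) and the proteasome subunit Psma5 (0.988).

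The adipose libraries also held markers of other tissues and cell types. In SCAT, 8 of 8 pancreatic acinar markers and 5 of 6 lymphocyte markers were enriched, with Ctrb1 at 35.9 and Ms4a1 at 50.6 FPKM, and the acinar list summed to 160 FPKM there against 1.38 to 6.95 elsewhere. In VAT, 4 of 6 epididymis markers were enriched, led by Crisp1 and Lcn5, and Lcn9 and Cst11 were listed at 0. BAT held muscle transcripts at 1.46% (Mylpf) to 3.13% (Tnnt3) of their muscle FPKM, while Fgfr1 in BAT was 72.3% of its muscle level. Median ratio scaling of the libraries would move SCAT by 0.31, VAT by 0.23, cortex by 0.17, BAT by -0.15 and muscle by -0.23 log2 units. The part of such other tissues in the adipose values of Klb, Fgfr1 and Fgf1 was not tested.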

How the data were processed

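RNA-Seq libraries of liver, kidney, VAT, cortex, SCAT, BAT and muscle (1 per tissue) were analysed. Per the study's methods and the submitters' processing notes, the authors removed rRNA reads with Bowtie2 2.2.9, aligned the rest to GRCm38/mm10 with STAR 2.6.0c, assembled transcripts with Cufflinks 2.2.1 and compared tissues pairwise with Cuffdiff. The authors deposited FPKM (fragments per kilobase of transcript, scaled to library size) at 94339 loci, repeated over 21 comparisons. The Cuffdiff fold changes, test statistics, p-values and q-values in the table were not used. The libraries were made with a directional kit per the labels, while the strand option and the normalisation that Cuffdiff was run with are not given in the sources used here. No counts were given, so depth and its precision are unknown and no interval was computed.

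The 151 loci with the status FAIL were left out, and zeros marked LOWDATA were taken as missing. Loci naming several genes counted for each of them, and of several loci of a name the one with the highest maximum FPKM was used. Levels were compared as log2(FPKM + 0.1), with the enrichment rule given in the text (at least 1 FPKM, at least 4-fold, at least 4 tissues with a value). The rule was run on simulated levels, flat across tissues apart from genes raised well past the threshold. That run checks the code only and cannot speak to the spread of these libraries. All members were named. Of a gene list, every enriched gene was named where there were 4 or fewer, otherwise the 4 with the largest log2 ratio, together with the highest by FPKM, except 1 gene that is not reported here. Further list genes, the gap rule and the genes sharing the pattern of Klb were picked with their values in view. The members and lists were chosen with earlier results of these data known. Promoters came from RefSeq, and protein sequences were not used here. Alternatives covered the pseudocount, minimum, fold, scaling, choice of locus, failed and low loci, and leaving out the SCAT or VAT library. Python 3.11.15, pandas 2.3.3, NumPy 2.4.6 and matplotlib 3.10.9 were used.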

Additional observations from a re-analysis of the deposited data

How the results depend on the processing

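Fgf21 in liver and Kl in kidney were enriched under all 14 alternatives for the count of members, which rose to 3 with a 2-fold rule by adding Fgf1 in kidney. Several of the 14 could not remove either call, such as a lower minimum, the 2-fold rule and leaving out the SCAT or VAT library. The 2-fold rule raised the list genes from 20 to 34 and all gene names from 4401 to 7707, and the 8-fold rule gave 2896 names. With a pseudocount of 1 the log2 ratios of Fgf21 and Kl were 2.95 and 4.37, and with FPKM summed over loci that of Fgf1 in kidney over liver was 0.53. With median ratio scaling that of Klb in BAT over liver was -0.09 instead of 0.04. Relative to the sum of all 4 receptors, Klb was 0.502 in liver, 0.436 in VAT, 0.630 in SCAT and 0.655 in BAT, and Kl 0.962 in kidney. With FPKM summed over loci the Klb values were 1.16, 1.12, 1.34 and 1.74. Alternatives chosen after seeing the data were loci on the annotated strand alone, which gave 0.160, 0.161, 0.181 and 0.205 for Klb, 0.348 for Kl and a Fgfr4 share of 10.2% in liver. Leaving out Fgfr2 gave 1.08, 0.805, 1.13 and 1.49 for Klb and 1.59 for Kl. The Fgfr4 share in liver was then 56.4%, the Fgfr3 share in cortex 71.2%, and the Fgfr1 shares 31.6% in kidney, 81.7% in VAT, 91.5% in SCAT, 89.4% in BAT and 86.3% in muscle. Leaving out loci with several names gave 1.08, 0.790, 1.10 and 1.48 for Klb, 1.56 for Kl, and shares of 56.1% (Fgfr4, liver), 70.6% (Fgfr3, cortex), 31.1% (kidney), 80.2% (VAT), 89.0% (SCAT), 88.9% (BAT) and 84.4% (muscle, Fgfr1). The cause of these shifts was not tested beyond the loci each alternative holds. No paired analysis was possible because a tissue is represented by a single library.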
